A study of Mus musculus with 14 samples.

Results

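Asparagine synthetase (Asns) and 9 genes that belong with it to the amino acid response were followed in liver RNA of LRH-1 K289R mice and wild-type (WT) mice. LRH-1, a nuclear receptor whose gene is Nr5a2, carries arginine in place of a lysine in the K289R animals. The 10 genes are Asns, Chac1, Atf4, Atf3, Ddit3, Trib3, Psat1, Phgdh, Psph and Sesn2. Asns was chosen by its large K289R minus WT difference on these arrays, and the other genes as its known regulators and companions, with earlier results of the same arrays in view. A gene was read from probe sets annotated with its symbol alone, and where it had several, from the one with the highest mean over all arrays. This gave values for 9 of the 10, among 19237 named genes on the array. The probe set of Ddit3 was also annotated to another gene, so Ddit3 was not analysed here.

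The series held 14 Affymetrix whole-transcript arrays, 1 per mouse, 7 of K289R livers and 7 of WT livers. The mice of both genotypes were 17 to 19 weeks old, had free access to food and were killed at 7 am. The sources used here give neither sex nor litter, nor how the substitution was made. Both genotypes were labelled with replicate numbers 1 to 7. All 10 hepatocyte markers measured, among them Alb (12.97 to 13.17 in K289R and 13.07 to 13.13 in WT livers, in log2 units), were bright on all arrays, and their summed intensity was 46973 to 51522 in K289R and 48275 to 51108 in WT livers. Levels below are log2(intensity + 1), differences are K289R minus WT on that scale, and array intensities do not allow 1 gene's level to be set against another's.

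ATF4 is a transcription factor whose translation rises when eIF2 is phosphorylated, for instance by the kinase GCN2 (Eif2ak4) when uncharged tRNA accumulates or by PERK (Eif2ak3) under endoplasmic reticulum stress. It raises the transcription of genes for amino acid synthesis, uptake and tRNA charging, and Asns, which makes asparagine from aspartate and glutamine, is one of its best known targets. In human cells the ASNS promoter responds through a pair of nutrient-sensing response elements, TGATGAAAC and GTTACA, the first of which is bound by ATF4 and C/EBP proteins.

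The mouse Asns promoter window is shown because this pair lies in it. It comes from RefSeq, build GRCm38.p6, chr6:7693160-7693459 on the minus strand, 250 bases before and 50 after the annotated start. Capitals mark the pair.

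Asns: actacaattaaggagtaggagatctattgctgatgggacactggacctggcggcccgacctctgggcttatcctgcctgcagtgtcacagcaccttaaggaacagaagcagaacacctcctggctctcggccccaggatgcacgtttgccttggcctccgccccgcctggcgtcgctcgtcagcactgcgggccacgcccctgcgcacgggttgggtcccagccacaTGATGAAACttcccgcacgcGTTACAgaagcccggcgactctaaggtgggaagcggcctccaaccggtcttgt

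The first element began 23 bases before the start and the second lay 11 bases after the end of the first. Among 32851 such windows, 81 (0.247%) held TGATGAAAC on either strand and 2709 (8.25%) held GTTACA. The 2 elements in this order and 11 bases apart were found in 1 window, that of Asns. A shorter form of the first element, TGATGNAA, which also matches TGATGAAAC, was found on either strand in 1304 windows (3.97%). Among the 10 genes it was present in the windows of Asns, Chac1, Atf3 and Trib3. The sites of the other 3 genes are shown with their flanks, 5′ to 3′ on the strand of the gene, with the match in capitals. Each of them reads TGATGNAA on the opposite strand.

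Chac1: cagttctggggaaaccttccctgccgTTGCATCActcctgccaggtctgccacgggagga

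Atf3: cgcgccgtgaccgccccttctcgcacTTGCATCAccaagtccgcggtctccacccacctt

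Trib3: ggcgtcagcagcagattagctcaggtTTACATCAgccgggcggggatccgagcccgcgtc

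The sites lie at chr2:119351049-119351056 for Chac1, chr1:191183436-191183443 for Atf3 and chr2:152344039-152344046 for Trib3. The 8 bases of Asns lie at chr6:7693225-7693232. A match of letters is a description of the sequence and no evidence of binding in these livers.

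Asns transcript was high in every K289R liver. On the linear scale its intensities were 1934, 2061, 1563, 1795, 1304, 2246 and 2204 in K289R replicates 1 to 7, against 103, 108, 149, 159, 37.6, 44.0 and 42.1 in WT replicates 1 to 7. No K289R value came near a WT value, and the WT values fell into 2 levels. In log2 units the mean was 10.85 ± 0.28 in K289R and 6.32 ± 0.89 in WT livers (SD, n = 7 each). The difference of 4.53 ± 0.28 (SE), with a 95% interval of 3.95 to 5.12, is a fold of 23.1 (15.4 to 34.8). Because Asns was chosen for this difference, it is given as a description and no test is attached to it.

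WT replicates 1 to 4 had Asns levels of 6.71, 6.77, 7.22 and 7.33, and WT replicates 5 to 7 had 5.27, 5.49 and 5.43. K289R replicates 1 to 4 had 10.92, 11.01, 10.61 and 10.81, and K289R replicates 5 to 7 had 10.35, 11.13 and 11.11. The 2 sets thus did not overlap in WT livers and did so in K289R livers. The K289R minus WT difference was 3.83 ± 0.13 (SE) among replicates 1 to 4, a fold of 14.2, and 5.47 ± 0.18 among replicates 5 to 7, a fold of 44.2. Both differences lie outside the interval of 3.95 to 5.12 over all arrays, from a fit that has no term for the sets. That interval therefore does not describe either set. WT replicates 5 to 7 lay below the array medians of all genes (5.61 to 5.75 in WT livers). The fold of 44.2 thus rests on dim WT values, and the scale used understates changes of dim genes. In a model of all genes with genotype, set and their product, the genotype difference of Asns was larger by 1.63 in replicates 5 to 7 (limma adjusted p = 0.00677). Of all genes 22 (0.114%) passed that test. The sets are not named by the labels and were recognised in these same arrays, so this p is no independent evidence. None of the other 8 measured genes passed it.

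The spread of Asns in WT livers was unusual among the genes measured. Its WT standard deviation of 0.89 was exceeded by 5 of 19237 genes (0.026%), whereas the median over all genes was 0.15. The 5, looked up after that count was seen, were Moxd1, Cyp4a14, Mfsd2a, Cyp39a1 and Rnase2a. In K289R livers its standard deviation of 0.28 was exceeded by 1310 genes (6.81%). The WT value of 0.89 is taken over both sets. It includes the gap between WT replicates 1 to 4 (mean 7.01) and WT replicates 5 to 7 (mean 5.40).

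**Figure D1:**
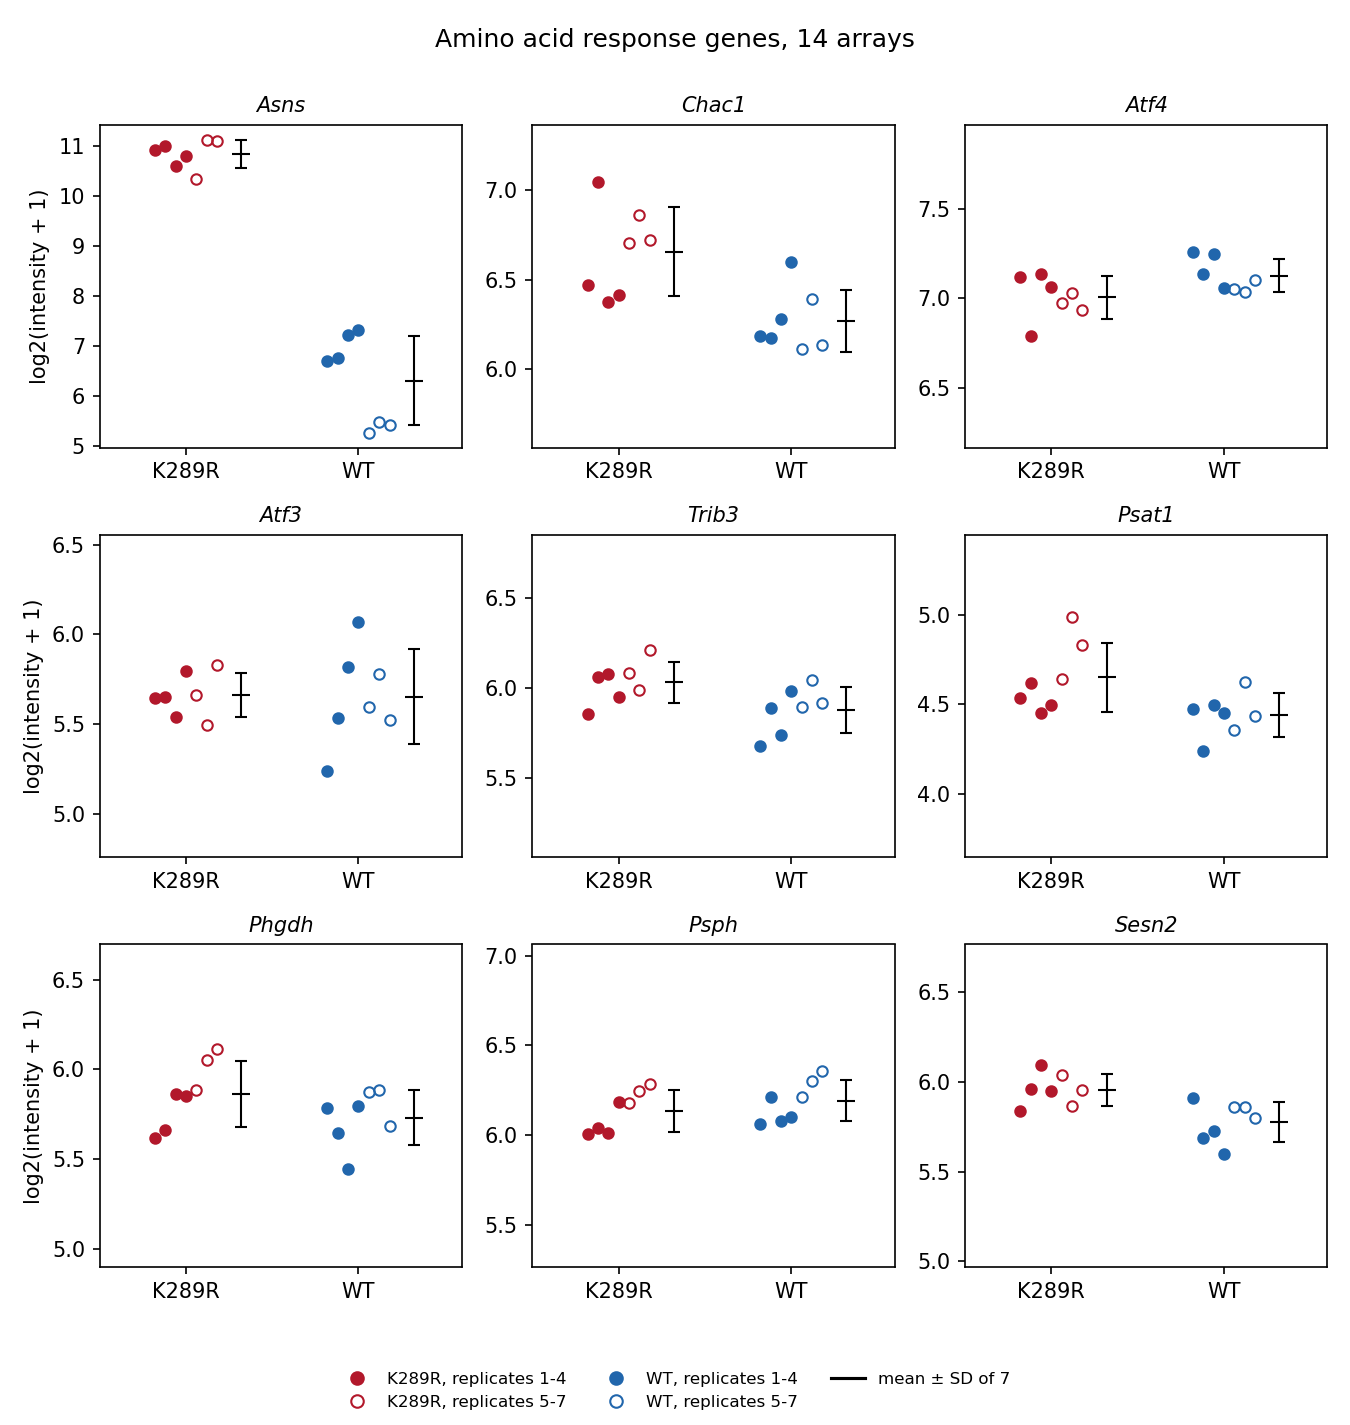
Level of the 9 measured genes on each array, in log2(intensity + 1), K289R left and WT right, with replicates 1 to 4 filled, replicates 5 to 7 open and the mean ± SD of 7 arrays in black. The Asns panel has its own scale, and the other panels all span the same number of log2 units. Asns is at 10.35 to 11.13 on the K289R arrays and at 5.27 to 7.33 on the WT arrays, and the other 8 genes overlap between the genotypes.

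For the transcription factors of the response the differences were small. Atf4 transcript lay at 6.79, 7.03 and 7.14 (lowest, median and highest) in K289R and at 7.04, 7.10 and 7.26 in WT livers. Of the K289R arrays, 4 were below each WT array. The difference was -0.12 ± 0.07 (SE), with a 95% interval of -0.26 to 0.02, so a rise above a fold of 1.02 lies outside that interval. ATF4 is controlled largely through translation, and protein was not measured. Atf3, a related factor that ATF4 can induce, lay at 5.49, 5.65 and 5.83 in K289R and at 5.24, 5.59 and 6.07 in WT livers. The K289R range fell inside the WT range, and the difference was 0.01 ± 0.10. Atf3 averaged 5.66 in K289R and 5.65 in WT livers, among the array medians of all genes (5.61 to 5.79). A small change in Atf3 could therefore be missed.

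Feedback and stress outputs of ATF4 differed by little. Chac1, an enzyme that breaks down glutathione, lay at 6.38, 6.71 and 7.05 in K289R and at 6.11, 6.19 and 6.60 in WT livers. K289R replicates 2, 5, 6 and 7 were above every WT array, and the other 3 overlapped with them. Its difference was 0.39 ± 0.10 (SE), a fold of 1.31, and came to 0.27 ± 0.14 among replicates 1 to 4 and 0.55 ± 0.13 among replicates 5 to 7. Trib3, a pseudokinase that restrains ATF4, lay at 5.86, 6.06 and 6.21 in K289R and at 5.68, 5.90 and 6.04 in WT livers, with 4 K289R arrays above every WT array. Its difference was 0.15 ± 0.08. Sesn2, which links leucine supply to mTORC1, lay at 5.84, 5.95 and 6.09 in K289R and at 5.60, 5.80 and 5.91 in WT livers, with 5 K289R arrays above every WT array. The difference of Sesn2 was 0.18 ± 0.07.

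Serine synthesis was read from its 3 enzymes, which act in the order Phgdh, Psat1, Psph. Phgdh lay at 5.62, 5.86 and 6.11 in K289R and at 5.44, 5.79 and 5.88 in WT livers, a difference of 0.13 ± 0.09 (SE). A dimmer probe set of Phgdh, not used above, differed by -0.02. Psat1 lay at 4.45, 4.62 and 4.99 in K289R and at 4.24, 4.45 and 4.63 in WT livers, a difference of 0.21 ± 0.09, with the highest values in K289R replicates 6 and 7. Psph lay at 6.00, 6.18 and 6.28 in K289R and at 6.06, 6.21 and 6.36 in WT livers, a difference of -0.06 ± 0.07. All 3 overlapped between the genotypes. Psat1 averaged 4.65 in K289R and 4.44 in WT livers, below the array medians of all genes (5.61 to 5.79). A change in Psat1 could therefore be missed.

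Of the 9 genes, 2 had a limma adjusted p under 0.05, Asns and Chac1, both higher, and none was lower. Over all genes 19.1% did, 8.37% higher and 10.8% lower. Asns was chosen by this difference and the others with it in view, so these counts, here and in the next paragraph, describe the 9 genes and are no test of them. The difference was above 0 for 7 of the 9, against 62.2% of all genes, and the median of the 9 was 0.15, against 0.05 over all genes. Every K289R array was above every WT array for 1 of the 9, Asns, and below for none. Over all genes 7.54% were without overlap, 2.82% above and 4.73% below.

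Chac1 was over 0.05 when the 4 sets (2 of each genotype) were random blocks, which left 1 of the 9, Asns, higher and none lower. With those blocks 11.3% of all genes passed, 4.01% higher and 7.3% lower. Chac1 was over 0.05 also among replicates 1 to 4, where again 1 of the 9 was higher and 14.1% of all genes passed (6.92% higher). Among replicates 5 to 7 the count was 2 of the 9, against 9.16% of all genes (1.89% higher). Without K289R replicates 6 and 7 it was 2 of the 9, against 17.8% of all genes, and the differences of Psat1 and Phgdh were 0.11 and 0.04.

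**Figure D2:**
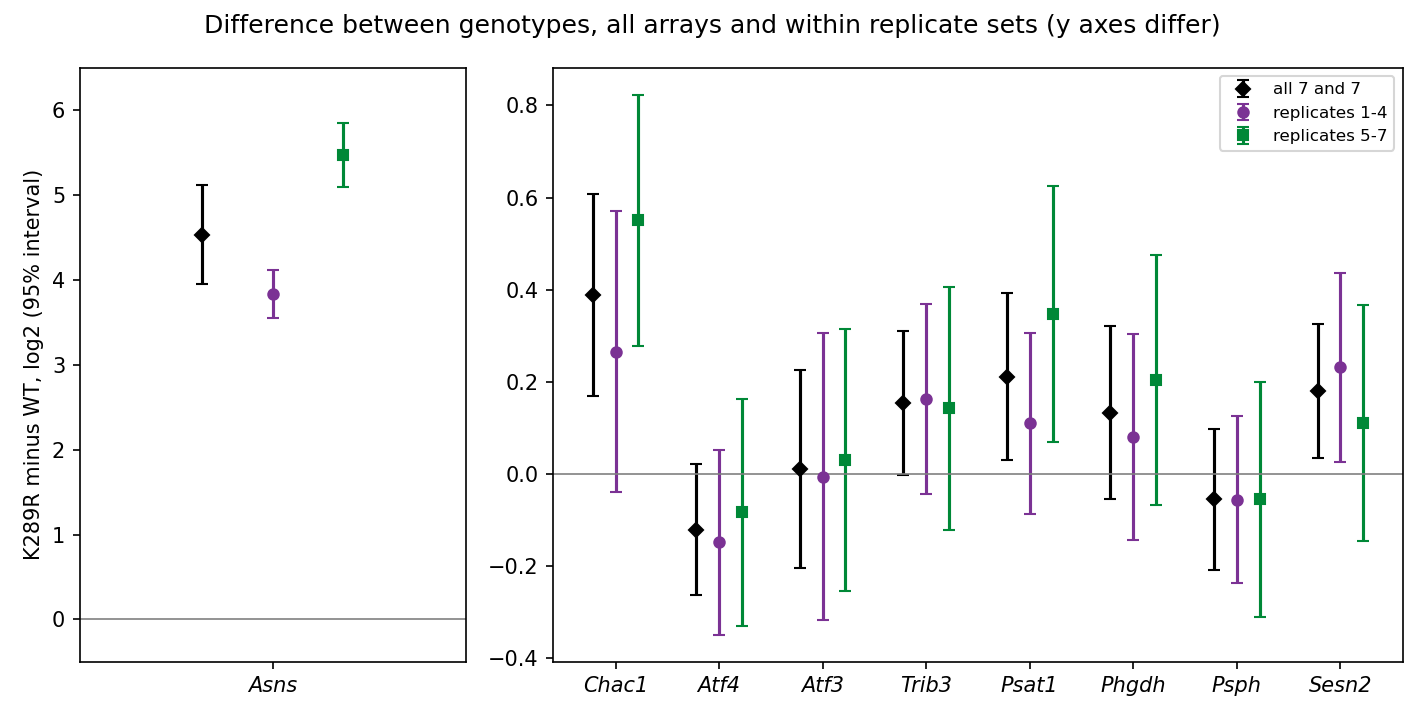
K289R minus WT difference in log2 units with its 95% interval for each of the 9 genes, over all arrays (diamond), among replicates 1 to 4 (circle) and among replicates 5 to 7 (square), with a separate axis for Asns. Asns differs by 3.83 and 5.47 in the 2 sets, and the other differences lie between -0.15 and 0.55.

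Genes known to belong to the same pathway were examined in 7 lists, which named 106 genes and measured 93. The lists too were drawn up with earlier results of these arrays known, so their counts describe the lists and are no test of them. Their genes were tested 1 by 1 with limma over all genes. Of the 93, 13 were higher and 19 lower in K289R livers. Over all genes 8.37% were higher and 10.8% lower, and the median difference was 0.05. The counts and median of each list below stand beside these values. With median centring of the arrays the split over all genes, 1610 higher and 2068 lower, became 900 higher and 2044 lower. K289R replicates 6 and 7 had the narrowest spread of values of all arrays (interquartile range 2.28 each, against 2.36 to 2.83 on the other arrays). The counts and medians that moved by over 1.5 times without them are given with each list. Leaving out both was an alternative chosen after seeing the data.

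Several amino acid carriers were higher in K289R livers. Of 9 measured, 4 rose, none fell and 5 did not pass, and the list median was 0.17. Slc3a2, the heavy chain shared by several carriers, lay at 9.84, 10.05 and 10.26 in K289R and at 9.38, 9.52 and 9.68 in WT livers. Every K289R array was above every WT array, and the rise was 0.54 ± 0.06 (SE, adjusted p = 4.14e-06). Slc7a5, the leucine carrier that pairs with Slc3a2, lay at 6.33, 6.49 and 6.95 in K289R and at 6.02, 6.24 and 6.30 in WT livers. Again the groups did not overlap, and it rose by 0.36 ± 0.09 (adjusted p = 0.00593). The glutamine carrier Slc1a5 rose by 0.32 ± 0.09 (adjusted p = 0.0115), and Slc38a2, which imports small neutral amino acids, by 0.35 ± 0.10 (adjusted p = 0.0209). With sets as random blocks Slc3a2 and Slc7a5 passed, and Slc1a5 (adjusted p = 0.0623) and Slc38a2 (adjusted p = 0.102) did not. Slc38a2 also missed the threshold with median centring (adjusted p = 0.0762). Slc7a11, the cystine carrier and a frequently used ATF4 target, differed by 0.11 ± 0.09. It averaged 3.69 in K289R and 3.59 in WT livers, close to the array medians of olfactory receptor genes (3.34 to 3.52), which stand for unexpressed genes. A change in Slc7a11 could therefore be missed.

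In the enzyme list, 2 of 11 rose, none fell and 9 did not pass, with a median of 0.15 (0.07 without K289R replicates 6 and 7). Gpt2, which makes alanine from pyruvate and glutamate in mitochondria, lay at 10.73, 10.79 and 11.01 in K289R and at 10.15, 10.27 and 10.35 in WT livers. The groups did not overlap, and Gpt2 rose by 0.60 ± 0.06 (SE, adjusted p = 4.39e-07). Cth, which makes cysteine from cystathionine, averaged 11.45 ± 0.10 in K289R and 11.01 ± 0.13 in WT livers (SD, n = 7 each), with 6 K289R arrays above every WT array. Its rise of 0.44 ± 0.06 (adjusted p = 3.28e-05) was about as large in both sets, 0.43 and 0.45. The mitochondrial folate enzymes did not pass: Shmt2 differed by 0.21 ± 0.10 and Mthfd2 by -0.10 ± 0.09. Mthfd2 was dim, averaging 5.37 in K289R and 5.47 in WT livers, below the array medians of all genes (5.61 to 5.79).

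tRNA charging enzymes went both ways. Of 17 measured, 2 rose, 4 fell and 11 did not pass, with a median of 0.02. On leaving out K289R replicates 6 and 7, 3 rose, 3 fell and the median was 0.06. With sets as random blocks 1 rose and 3 fell, since Vars (adjusted p = 0.0942) and Lars (adjusted p = 0.0857), for valine and leucine, no longer passed. Yars, for tyrosine, rose by 0.48 ± 0.07 (SE, adjusted p = 4.84e-05). Tars, for threonine, fell by 0.70 ± 0.12 (adjusted p = 0.000266), Hars, for histidine, by 0.33 ± 0.07 (adjusted p = 0.00294) and Eprs, for glutamate and proline, by 0.33 ± 0.08 (adjusted p = 0.00507). For Yars, Tars and Vars, which rose by 0.21 ± 0.06 (adjusted p = 0.019), the genotypes did not overlap. Nars, which charges tRNA with asparagine, the product of Asns, differed by -0.19 ± 0.08 (adjusted p = 0.0976). With quantile normalization 5 of the 17 rose.

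Among partner factors and stress outputs, 2 of 14 rose, 1 fell and 11 did not pass, with a median of 0.09. In the absence of K289R replicates 6 and 7, 2 rose, none fell and the median was 0.04. Fgf21, a liver hormone that ATF4 induces, lay at 5.05, 5.25 and 5.79 in K289R and at 4.79, 4.98 and 5.25 in WT livers. Its rise was 0.40 ± 0.10 (SE, adjusted p = 0.00911), with 3 K289R arrays above every WT array. Sqstm1, an autophagy receptor, rose by 0.27 ± 0.05 (adjusted p = 0.000718), and its differences within the sets were 0.38 and 0.13. Cebpg, a partner of ATF4 in DNA binding, fell by 0.22 ± 0.07 (adjusted p = 0.039). It did not pass with sets as random blocks (adjusted p = 0.152) or without K289R replicates 6 and 7 (adjusted p = 0.0975), and missed the threshold on leaving out a single array in 8 of 14 cases. Nupr1, Stc2 and Ddit4, often used as readouts of the response, differed by 0.15 ± 0.11, 0.15 ± 0.10 and -0.13 ± 0.08 and did not pass. Stc2 averaged 4.74 in K289R and 4.59 in WT livers, below the array medians of all genes (5.61 to 5.79). A change in Stc2 could therefore be missed.

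**Figure D3:**
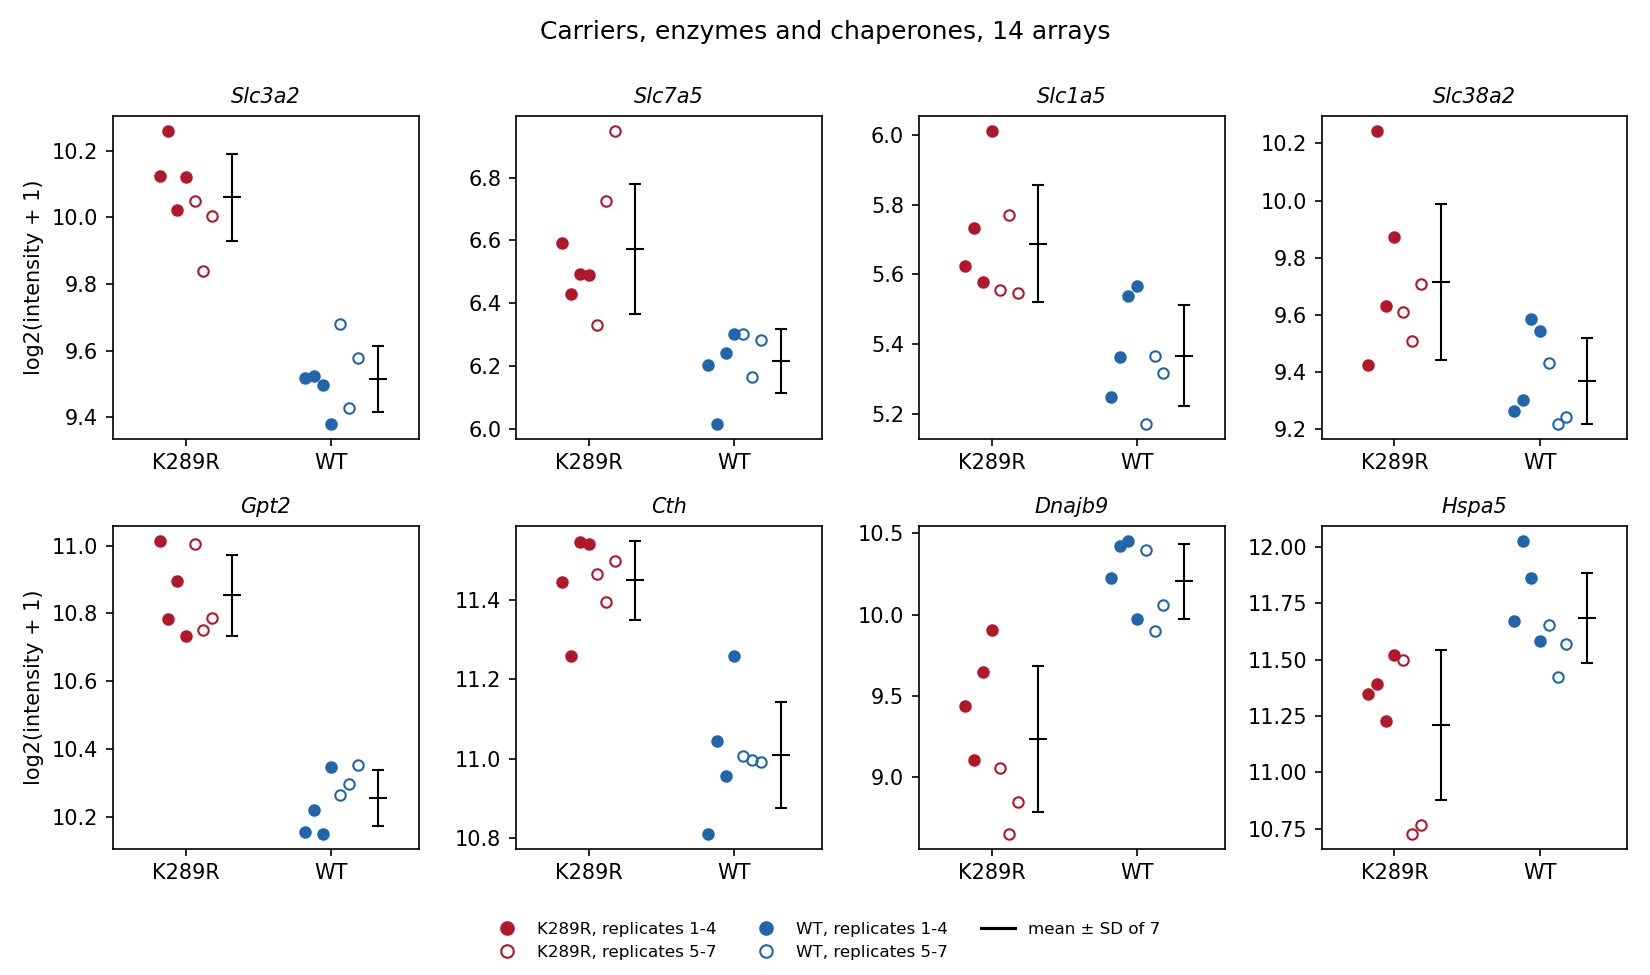
Level of 4 amino acid carrier genes, 2 enzyme genes and 2 chaperone genes on each array, in log2(intensity + 1) on a separate scale per gene, K289R left and WT right, with replicates 1 to 4 filled, replicates 5 to 7 open and the mean ± SD of 7 arrays in black. Slc3a2, Slc7a5 and Gpt2 do not overlap between the genotypes, and Hspa5 is lowest on K289R replicates 6 and 7.

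Upstream of ATF4, none of 15 genes for eIF2 kinases and their setting rose and 5 fell, with a median of -0.14. The list mixes kinases with genes of other roles, so its count and median give no direction for the pathway. Phosphorylation of eIF2 was not measured. GCN2 (Eif2ak4) differed by -0.11 ± 0.07 (SE, adjusted p = 0.328) and PERK (Eif2ak3) by -0.33 ± 0.13 (adjusted p = 0.0846). The heme-regulated kinase gene Eif2ak1 lay at 7.24, 7.50 and 7.58 in K289R and at 7.68, 7.87 and 7.99 in WT livers, without overlap, and fell by 0.41 ± 0.08 (adjusted p = 0.000749). Eif2ak2, the kinase PKR of the interferon response, fell by 0.59 ± 0.09 (adjusted p = 7.76e-05), Nck1, an adaptor, by 0.57 ± 0.12 (adjusted p = 0.0018) and Eif2b1, a subunit of the eIF2 exchange factor, by 0.28 ± 0.08 (adjusted p = 0.0136). With sets as random blocks 4 fell, since Eif2b3, another subunit, no longer passed (adjusted p = 0.11). Without K289R replicates 6 and 7, 3 of the 15 fell, 1 rose and the median was -0.07, and Eif2b1 did not pass (adjusted p = 0.0503).

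Among genes that make or use aspartate, asparagine and glutamine, 3 of 12 rose, 5 fell and 4 did not pass, with a median of -0.14. Aspg, an asparaginase that breaks down the product of Asns, lay at 9.05, 9.20 and 9.55 in K289R and at 8.74, 8.85 and 9.07 in WT livers. With 6 K289R arrays above every WT array, it rose by 0.41 ± 0.08 (SE, adjusted p = 0.000633). Adss, which uses aspartate in purine synthesis, fell by 0.94 ± 0.08 (adjusted p = 4.4e-08), Aspa, which splits N-acetylaspartate, by 0.79 ± 0.11 (adjusted p = 3.79e-05) and Glud1, glutamate dehydrogenase, by 0.43 ± 0.06 (adjusted p = 5.1e-05). For these 3 the genotypes did not overlap. Adssl1, which encodes another enzyme for the same reaction as Adss, went the other way. It rose by 0.45 ± 0.09 (adjusted p = 0.000861), with 6 K289R arrays above every WT array. Asl rose by 0.31 ± 0.07 (adjusted p = 0.00311). Glul, which makes glutamine, differed by 0.14 ± 0.06 (adjusted p = 0.148).

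Genes of the chaperone arm of the unfolded protein response, driven by IRE1 and ATF6, were lower where they passed. Of 15 measured, none rose, 4 fell and 11 did not pass, with a median of -0.39. The list also holds the sensor genes Ern1 (for IRE1) and Atf6 and the factor gene Xbp1. Differences were below 0 for 11 genes and above 0 for 4, none of which passed. The 4 were Ern1 (0.23 ± 0.08, adjusted p = 0.0539), Xbp1 (0.18 ± 0.10), Calr (0.17 ± 0.09) and Atf6 (0.09 ± 0.08). Dnajb9, an endoplasmic reticulum co-chaperone, lay at 8.65, 9.10 and 9.90 in K289R and at 9.90, 10.23 and 10.45 in WT livers, with 6 K289R arrays below every WT array. It fell by 0.97 ± 0.15 (SE, adjusted p = 0.000127). Manf fell by 0.85 ± 0.16 (adjusted p = 0.000519), Hspa5 by 0.47 ± 0.12 (adjusted p = 0.0079) and Hsp90b1 by 0.41 ± 0.13 (adjusted p = 0.0295). Without K289R replicates 6 and 7 the difference was -0.29 for Hspa5 (adjusted p = 0.0222) and -0.21 for Hsp90b1 (adjusted p = 0.127). Hsp90b1 did not pass with sets as random blocks (adjusted p = 0.0855) and missed the threshold on leaving out a single array in 5 of 14 cases. Without K289R replicates 6 and 7, 3 of the 15 fell, 2 rose and the median was -0.09. The 2 that rose then were Calr (0.30, adjusted p = 0.00204) and Ern1 (0.23, adjusted p = 0.026).

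**Figure D4:**
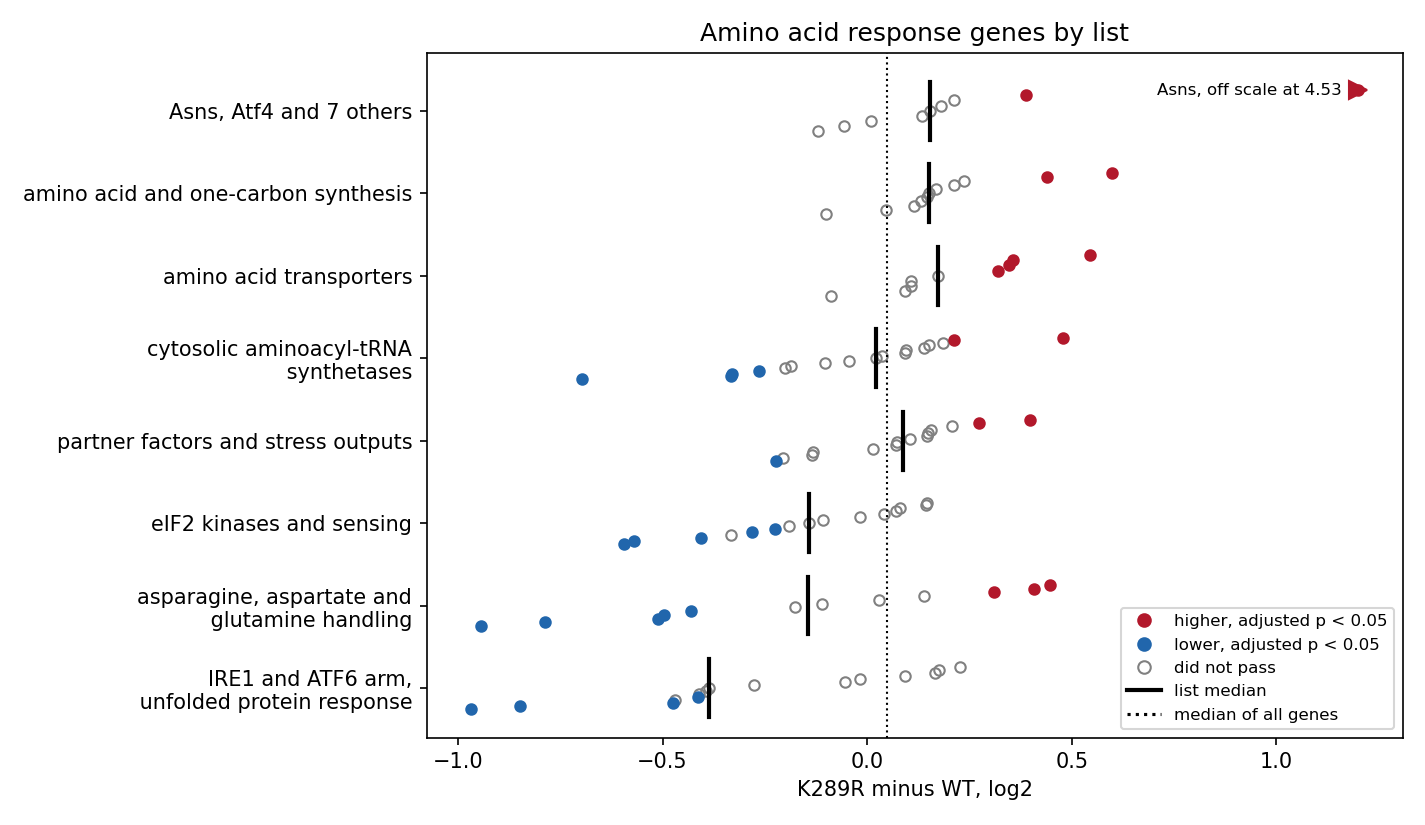
K289R minus WT difference in log2 units of each gene in the 7 pathway lists and of the 9 genes at the top, with filled points for genes past an adjusted p of 0.05 (red higher, blue lower), open points for the others, a black bar for the list median and a dotted line for the median of all genes, 0.05. Asns, at 4.53, is off the scale, and every other point lies between -0.97 and 0.60.

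Presence of the TGATGNAA motif was set beside these differences. Of 73 pathway genes with a promoter window, 13 held it, and 2 of the 13 rose, 1 fell and 10 did not pass. The risers were Yars and Fgf21, and Tars was the gene that fell. No gene of the eIF2, aspartate or chaperone lists held it. Of all 550 measured genes with the motif, 5.27% were higher and 8.91% lower, against 8.58% and 11.2% of all 14907 measured genes with a window.

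The 5 genes whose pattern over the 14 arrays was most like that of Asns came from outside the pathway. Likeness was the root mean square difference between standardised values, which is 0 for the same pattern, 1.41 for unrelated ones and 2 for opposite ones, among the 9617 genes in the brighter part of the array (mean over the all-gene median). The closest were Cyp27a1, the sterol 27-hydroxylase of bile acid synthesis (0.221), Trafd1 (0.237), Pm20d1, an enzyme of N-acyl amino acids (0.249), Ctse, which encodes cathepsin E (0.298), and Use1, a SNARE (0.309). The most opposite were Ap3s1 (1.99), Rida (1.99), Gtf2h5 (1.98), Gsr (1.98) and Pcna (1.98). The 14 arrays are 7 of each genotype, and for each of these 10 genes the genotypes did not overlap, a split that enters the measure. Of the 5 closest, 2 were still among the 5 closest after quantile normalization. Among the other measured genes of the 10 named at the start, Chac1 was closest at 0.719 and Atf4 farthest at 1.70. Distances of the pathway list genes are not given here. Several of those genes, such as Gpt2, Slc3a2 and Yars, also separated the genotypes without overlap.

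**Figure D5:**
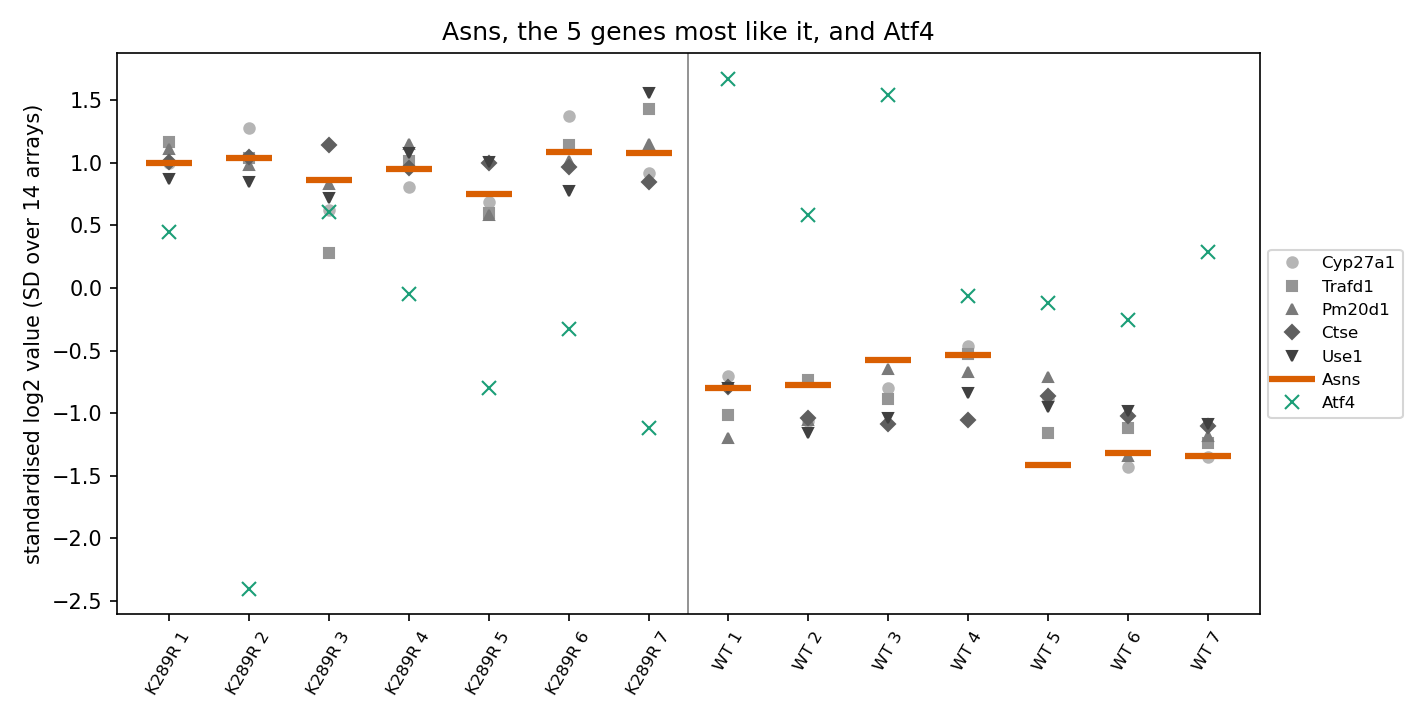
Standardised level (in SD over 14 arrays) of Asns (orange bars), the 5 genes most like it (grey) and Atf4 (green crosses) on each array, K289R arrays left of the line and WT arrays right of it. Asns and the 5 genes separate the genotypes, with differences between 0.28 and 4.58 in log2 units before standardising, and Atf4 does not.

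Genes next to Asns on chromosome 6 were read to see whether its difference extended to them. The 3 nearest measured genes on either side by gene order in GRCm38.p6 were Tac1, Sdhaf3 and Dlx5 and, on the other side, C1galt1, Col28a1 and Mios. Their differences lay between -0.21 and 0.15, and none passed. Tac1 averaged 2.91 in K289R and 2.87 in WT livers, below the array medians of olfactory receptor genes (3.34 to 3.52), which stand for unexpressed genes. Dlx5 (5.09 and 5.00) and Col28a1 (5.02 and 4.86) were below the array medians of all genes, 5.61 to 5.79. A change in such dim genes could be missed.

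Markers of other cells were read beside Asns, since in whole liver more cells of a type and more RNA per cell cannot be told apart. The exocrine pancreas, which expresses Asns strongly and lies near the liver, was covered by 12 of 16 named markers. Their summed intensity was 384 to 513 in K289R and 363 to 459 in WT livers, and none of the 12 passed. Of 10 macrophage markers 1 rose and 3 fell, of 8 endothelial markers 2 rose, of 8 stellate cell markers 2 rose and 1 fell, and of 7 neutrophil markers 1 rose. Of 8 lymphocyte markers 1 rose, of 10 hepatocyte markers 1 rose, and none of 5 cholangiocyte markers passed. Over all genes 8.37% were higher and 10.8% lower. The part of these lists in the results was not tested.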

How the data were processed

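Liver RNA of 7 K289R and 7 WT mice was hybridised to Affymetrix arrays from 100 ng of total RNA, per the labels' protocols. The deposited values are probe set intensities on a linear scale. Per the submitters' processing notes the authors used Affymetrix Expression Console. The sources used here give no version, background correction, summarisation, scaling between arrays or genome build. Arrays have no read depth, and their number limits the precision.

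Of 35556 probe sets, 21456 had 1 gene symbol, 2376 had several and stayed out, and 11724 had no entry in the annotation. Symbols were updated through Entrez identifiers (2 changed). Olfactory receptor genes, which stand for unexpressed genes, had array medians of 3.34 to 3.52 in log2 units.

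Values were analysed as log2(intensity + 1), which understates changes of dim genes, with limma 3.58.1 (R 4.3.3). Genotype was the only term, the prior variance followed a trend, and 2-sided p-values of 19237 genes were adjusted after Benjamini-Hochberg. It was tested on simulated data with 200 changed genes, and called 32% of those changed by a fold of 1.2, 88% at 1.5 and 100% at 2, with 7 false calls. The changed genes were all drawn from the brighter part of the array, and the simulated noise was independent between arrays, without sets. These rates therefore need not hold for dim genes or for the real arrays.

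The members and lists were chosen with earlier results of these data known. Named genes are the members, up to 4 passing genes of each list with the smallest p, the 5 most like and most opposite to Asns, and 3 neighbours on either side. Other genes were named after their values were seen. Promoters of all genes came from RefSeq. Alternatives were quantile normalization, median centring, other pseudocounts, leaving out dim genes, averaging a gene's probe sets, the replicate number as a block, sets as random blocks or a fixed term, each set alone, no variance trend and leaving out arrays. The labels describe each array as a biological replicate.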

Additional observations from a re-analysis of the deposited data

Results flagged for a closer look

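Asns stood out because its K289R minus WT difference was larger by 1.63 in replicates 5 to 7 than in replicates 1 to 4 (limma interaction, adjusted over all genes, adjusted p = 0.00677). In replicates 5 to 7 its mean was 10.86 in K289R and 5.40 in WT livers, and in replicates 1 to 4 it was 10.84 in K289R and 7.01 in WT livers, so the sets differed mainly in WT livers. Leaving out 1 array at a time gave 1.5 to 1.89. Asns was chosen by its difference and the sets were recognised in these same arrays, so the adjusted p is no independent evidence. Use1, among the genes most like Asns, had 1 array apart from the others, K289R replicate 7, the highest at 9.89. Its gap to the nearest array was 0.572 of the range of the 7 K289R arrays, against a limit of 0.568. In all 100 groups were examined in this way, and chance marks about 1 in 20.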

How the results depend on the processing

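No named gene past the threshold changed direction under any alternative run. Among those not past it, the sign turned for Atf3 (-0.06 to 0.08 with 1 array left out, -0.04 with quantile normalization, -0.03 with median centring and -0.01 in replicates 1 to 4), for Dlx5 in replicates 1 to 4 and without K289R replicates 6 and 7, and for Tac1 and C1galt1 in replicates 5 to 7. The Asns difference was 5.47 in replicates 5 to 7 alone, and 4.36 to 4.70 with 1 array left out. With sets as random blocks 1 measured amino acid response gene was higher, 2 carriers were higher, 1 tRNA synthetase was higher and 0 partner or stress genes were lower. In replicates 1 to 4 alone the counts higher were 1 amino acid response gene, 2 carriers, 1 synthetase, 1 partner or stress gene and 1 chaperone gene, and the counts lower were 0 partner or stress genes and 3 eIF2 genes. In replicates 5 to 7 alone 5 genes of the 7 lists were higher (13 over all arrays), with 1 carrier, 1 synthetase, 1 partner or stress gene and 0 aspartate genes, and 1 synthetase and 0 partner or stress genes were lower. Fewer arrays entered these 2 fits. Quantile normalization gave 5 synthetases, 2 eIF2 genes and 1 chaperone gene higher, 0 partner or stress genes lower, and 2 of the 5 genes most like Asns. Median centring gave 1 synthetase higher and 0 partner or stress genes lower. The filter on dim genes gave 1 partner or stress gene and 1 chaperone gene higher. Without K289R replicates 6 and 7, chosen after seeing the data, 1 eIF2 gene and 2 chaperone genes were higher, and 3 eIF2 genes and 0 partner or stress genes lower. With 1 array left out, 13 to 15 list genes were higher and 15 to 22 lower, with 0 to 1 partner or stress genes lower and 0 to 1 chaperone genes higher. With the replicate number as a block 0 partner or stress genes were lower, and 1 chaperone gene was higher and 8 lower. Same-numbered arrays of the 2 genotypes deviated together with correlations of -0.298 to 0.562, over 0.1 in 3 of 7 pairs. The labels do not say whether the numbers pair the mice, and these correlations cannot decide it. The causes of these changes were not tested. The numbers of arrays, 7 a genotype, limit the detection of small changes.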
